A study of Drosophila melanogaster with 4 samples.

Results

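The polyol pathway genes followed here were 5 aldo-keto reductase genes (Akr1B, CG10638, CG12766, CG9436 and CG10863) and 2 sorbitol dehydrogenase genes (Sodh1 and Sodh2, also written Sodh-1 and Sodh-2). They were chosen by name, with earlier results of these data known, and matched by FlyBase identifier. All 7 were found among the 17628 identifiers of the count table. Poly-A RNA of whole 5-day-old flies of the Oregon strain of Drosophila melanogaster had been sequenced after feeding on galactose (2 libraries) or on glucose (2 libraries), with no transgene, drug or further genotype in either group. Replicates are separate libraries, and the labels give neither the sex of the flies nor whether each library had its own fly culture, and a p-value here reflects library-to-library spread that could be purely technical. In whole flies, fewer cells of a type and less RNA per cell cannot be told apart.

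In the polyol pathway an aldose reductase, an enzyme of the aldo-keto reductase family, uses NADPH to reduce a sugar to its alcohol, glucose to sorbitol or galactose to galactitol. Sorbitol dehydrogenase then oxidises sorbitol to fructose with NAD. In mammals galactitol is a poor substrate of that enzyme and accumulates when galactose is plentiful, for example in the lens of the eye. The main route of galactose use is the Leloir pathway, which begins with galactokinase and leads to glucose phosphates. The comparison asks whether transcripts of genes assigned to this other route differed between flies on the 2 sugars. Which of the aldo-keto reductases reduce sugars in the fly was not tested.

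No gene of the group passed the test between diets. Akr1B, CG10638, CG12766, Sodh1 and Sodh2 were each higher in either galactose library than in any glucose library, by 1.19-fold (Sodh1) to 1.85-fold (CG12766) in the fitted mean. CG10863 had nearly equal means on the diets and CG9436 had a slightly lower mean on galactose. The difference in CG12766 lay almost wholly in galactose replicate 1. By edgeR's quasi-likelihood test 0 of the 7 had an adjusted p under 0.05, against 0.0% of the 12529 genes tested, and 0 of the 7 had an unadjusted p under 0.05, against 8.24% of all genes. DESeq2 called 0 of the 7, against 0.685% of the 12844 genes to which it gave an adjusted p.

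Values below are CPM, read counts put on 1 library size with TMM, the trimmed-mean normalization of edgeR, and fold changes are galactose over glucose. Akr1B (FBgn0086254, BDGP6 chromosome 3L, 11620535 to 11624381) encodes the fly counterpart of human aldose reductase. It was at 340.1 and 299.9 CPM in galactose replicates 1 and 2, against 282 and 214 CPM in glucose replicates 1 and 2. The groups did not overlap, although the 2 glucose libraries lay farther apart than the lower galactose library lay from the higher glucose one. The means were 320.0 ± 28.4 CPM on galactose and 248 ± 47.7 CPM on glucose (SD, n = 2 each), a log2 fold change of 0.37 ± 0.26 (SE; edgeR adjusted p = 0.689). The 95% interval of the fold change ran from 0.846 to 1.97. Without glucose replicate 2 the log2 fold change was 0.19, and without glucose replicate 1 it was 0.58. Without galactose replicate 1 it was 0.21.

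**Figure D1:**
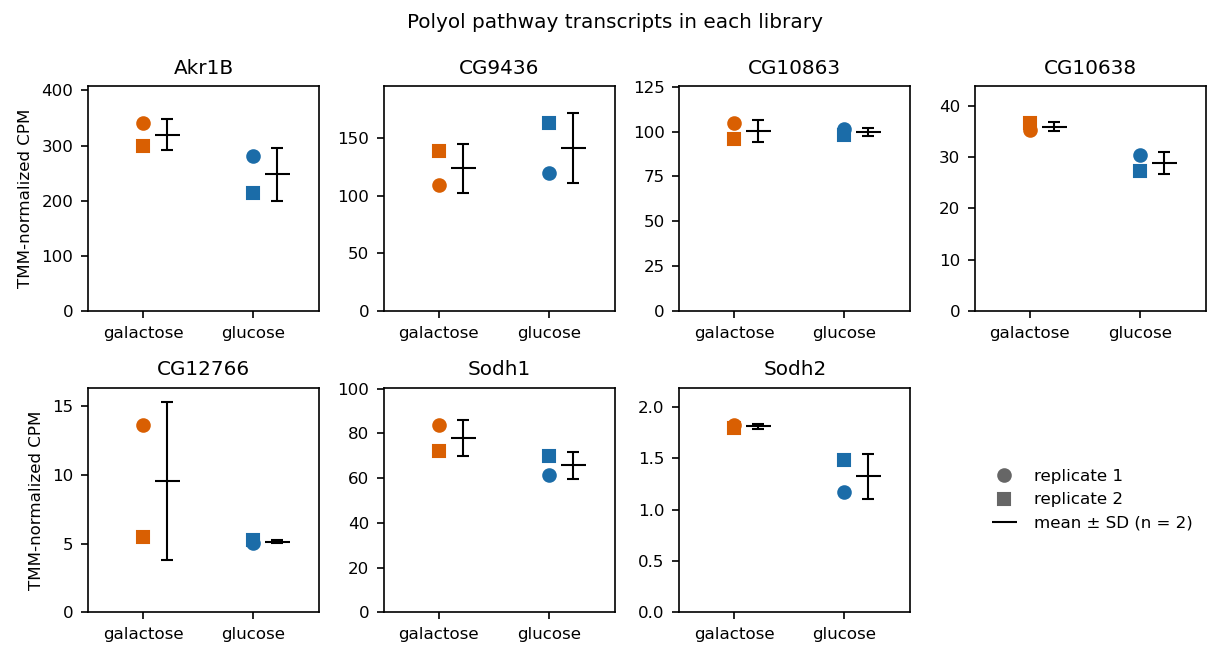
TMM-normalized CPM (y axis, from 0, a scale for each gene) of the 7 polyol pathway genes in 2 galactose (left, orange) and 2 glucose libraries (right, blue), with mean and SD beside the points. In 5 genes both orange points lie above both blue ones, CG10863 has nearly equal means, and in CG12766 a single galactose library at 13.6 CPM stands above the other libraries at 5.07 to 5.48.

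CG10638 (FBgn0036290, 3L, 12498106 to 12501311), another aldo-keto reductase gene, was at 35.3 and 36.6 CPM in the galactose libraries, against 30.4 and 27.3 CPM in the glucose libraries. The galactose libraries lay close together and above both glucose libraries. The means were 35.9 ± 0.888 CPM on galactose and 28.9 ± 2.17 CPM on glucose (SD, n = 2 each), a log2 fold change of 0.32 ± 0.25 (SE; edgeR adjusted p = 0.722). Leaving out each library in turn gave log2 values from 0.25 to 0.39, the narrowest range of the 7 genes.

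CG12766 (FBgn0035476, 3L, 3938624 to 3940125), also an aldo-keto reductase gene, had 328 and 122 reads in galactose replicates 1 and 2, against 130 and 113 reads in glucose replicates 1 and 2. These were 13.6 and 5.48 CPM on galactose, against 5.07 and 5.23 CPM on glucose. Galactose replicate 1 was high and the other 3 libraries were alike: the exact 95% Poisson interval, which covers counting error only, was 12.2 to 15.2 CPM in galactose replicate 1 and 4.55 to 6.55 CPM in galactose replicate 2, and the glucose intervals of 4.23 to 6.02 and 4.31 to 6.29 CPM overlapped that of galactose replicate 2. The means were 9.55 ± 5.75 CPM on galactose and 5.15 ± 0.119 CPM on glucose (SD, n = 2 each), a log2 fold change of 0.89 ± 0.48 (SE; edgeR adjusted p = 0.634). Its rank was 251 from the highest fold change among the 12529 genes. Without galactose replicate 1 its log2 fold change was 0.02, and without galactose replicate 2 it was 1.41, neither of them past the threshold.

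CG12766 was the 1 gene of the group whose log2 CPM ranged over more than 1 across the 4 libraries, as it did for 37.9% of all genes tested. Among 9420 genes of at least 5 CPM, the 2 with the most similar pattern over the 4 libraries, by root-mean-square distance of centred log2 CPM, were the cytochrome P450 gene Cyp309a1 (distance 0.11) and CG18180 (distance 0.12). Cyp309a1 was at 17.6 and 8.63 CPM on galactose and 7.21 and 7.87 CPM on glucose. CG18180 was at 1214 and 613 CPM on galactose and 493 and 502 CPM on glucose, likewise highest in galactose replicate 1.

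CG10863 (FBgn0027552, 3L, 3941008 to 3942465) lies 882 bases from CG12766 on the same strand, with no annotated gene of that strand between them. It was at 105 and 95.8 CPM in the galactose libraries, against 101 and 98.2 CPM in the glucose libraries, so the groups overlapped. The means were 100.2 ± 6.16 CPM on galactose and 99.8 ± 2.26 CPM on glucose (SD, n = 2 each), with a log2 fold change of 0.01 ± 0.24 (SE; edgeR adjusted p = 0.996) and a 95% interval of the fold change from 0.678 to 1.49. The CPM per kilobase of exon of CG10863 was 7.58 and 17.3 times that of CG12766 in galactose replicates 1 and 2, against 19.8 and 18.5 times in glucose replicates 1 and 2. This ratio within a library does not depend on scaling between libraries, and it set galactose replicate 1 apart from the other 3.

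CG9436 (FBgn0033101, 2R, 6757601 to 6758903), an aldo-keto reductase gene with a single annotated exon, was at 109 and 139 CPM in the galactose libraries, against 119.7 and 163 CPM in the glucose libraries. The groups overlapped, and in each diet replicate 2 was the higher. The means were 124 ± 21.1 CPM on galactose and 141 ± 30.5 CPM on glucose (SD, n = 2 each), a log2 fold change of -0.19 ± 0.28 (SE; edgeR adjusted p = 0.839). Without glucose replicate 2 the log2 fold change was 0.06, above 0. Akr1B had 2.67 and 1.85 times the CPM per kilobase of CG9436 in galactose replicates 1 and 2, against 2.01 and 1.13 times in glucose replicates 1 and 2, and these ratios overlapped between diets.

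The sorbitol dehydrogenase genes encode proteins of equal annotated length, 360 residues each. Sodh1 (FBgn0024289, 3R, 7052335 to 7054541) was at 83.8 and 72.3 CPM in the galactose libraries, against 61.3 and 70.0 CPM in the glucose libraries. Galactose replicate 2 and glucose replicate 2 were nearly level, and the separation came from galactose replicate 1 and glucose replicate 1. The means were 78.1 ± 8.07 CPM on galactose and 65.7 ± 6.18 CPM on glucose (SD, n = 2 each), a log2 fold change of 0.25 ± 0.25 (SE; edgeR adjusted p = 0.769). Without galactose replicate 1 it was 0.07, and without glucose replicate 1 it was 0.16.

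Sodh2 (FBgn0022359, 3R, 10876384 to 10878257) had the fewest reads of the 7 genes, 44 and 40 reads in the galactose libraries, against 30 and 32 reads in the glucose libraries. These were 1.83 and 1.80 CPM on galactose, against 1.17 and 1.48 CPM on glucose. The galactose libraries lay above both glucose libraries, but the exact 95% Poisson intervals of all 4 overlapped, the widest apart being 1.33 to 2.45 CPM in galactose replicate 1 and 0.789 to 1.67 CPM in glucose replicate 1. The log2 fold change was 0.45 ± 0.44 (SE; edgeR adjusted p = 0.759), with a 95% interval of the fold change from 0.665 to 2.81. Without glucose replicate 1 the log2 fold change was 0.29, and without glucose replicate 2 it was 0.64. Sodh1 stood 44.5 and 39.1 times above Sodh2 in CPM per kilobase in galactose replicates 1 and 2, against 50.9 and 45.9 times in glucose replicates 1 and 2.

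**Figure D2:**
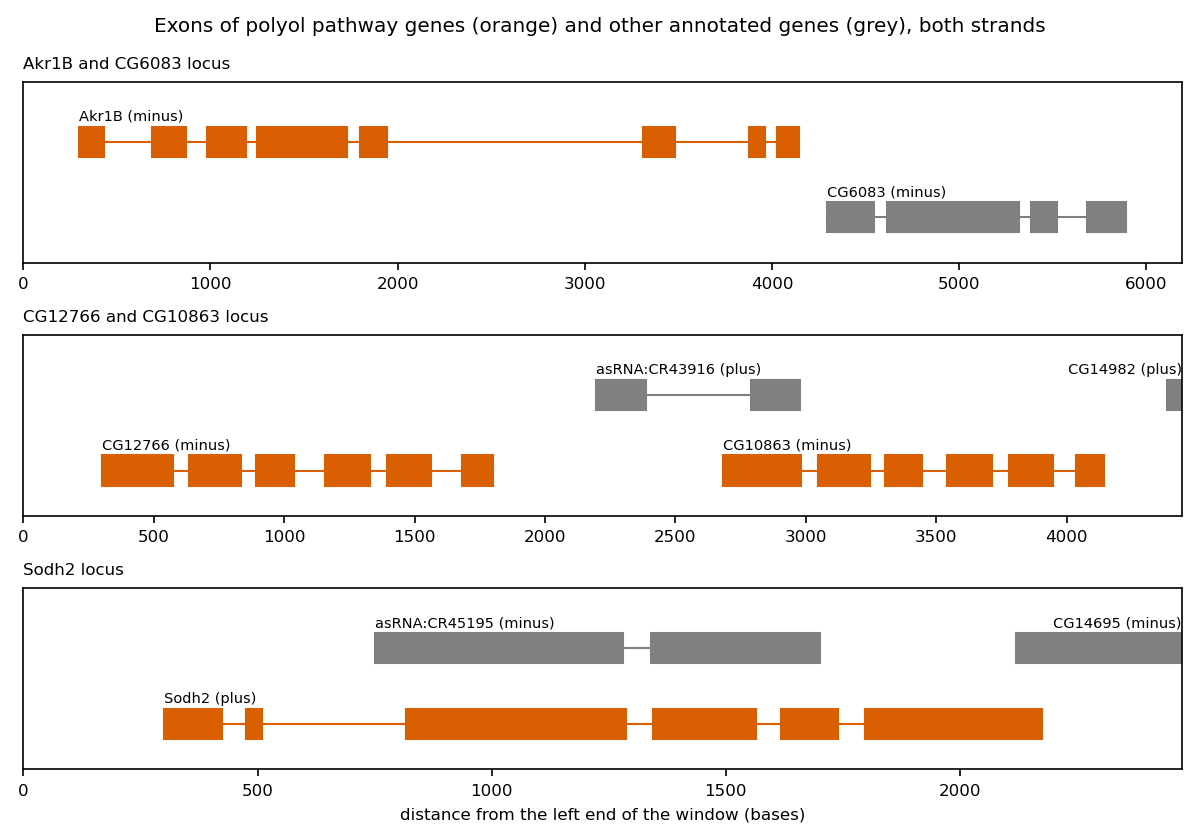
Exons (boxes) of 3 loci in the BDGP6.54 annotation, drawn to scale against the distance in bases from the left end of each window, with the strand of each gene in brackets. CG12766 and CG10863 lie 882 bases apart on the minus strand, Akr1B lies 146 bases from CG6083, and antisense genes overlap Sodh2 and the 3' end of CG10863.

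Some of these counts depend on how reads in overlapping genes were assigned, a setting not given in the sources used here. Genes on the opposite strand cover 60.8% of the exonic bases of Sodh2 (asRNA:CR45195 and CG14695), 17.4% of those of CG10863 (asRNA:CR43916) and 15% of those of CG10638 (asRNA:CR43868). Akr1B, CG12766, CG9436 and Sodh1 have no such overlap. CG14695 had 13 and 17 reads on galactose, against 14 and 7 on glucose. Of the antisense RNA genes, asRNA:CR45195 had 0 reads in every library, asRNA:CR43916 had 1 and 0 reads on galactose and 0 in each glucose library, and asRNA:CR43868 had 2 and 0 on galactose and 3 and 1 on glucose. Reads from a gene and its antisense partner cannot be told apart without strand, so the levels of Sodh2, CG10863 and CG10638 are uncertain.

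Levels between genes were compared as CPM per kilobase of exon. The order was the same on both diets: Akr1B, CG9436, CG10863, Sodh1, CG10638, CG12766, Sodh2. Mean levels per kilobase were 210.4 on galactose and 163 on glucose for Akr1B, 95.2 and 108 for CG9436, and 92.01 and 91.7 for CG10863. They were 56.3 on galactose and 47.3 on glucose for Sodh1, 14.7 and 11.8 for CG10638, 8.88 and 4.79 for CG12766, and 1.35 and 0.985 for Sodh2. Neighbours in this order had separate libraries on each diet, except CG9436 and CG10863, which overlapped on both. Akr1B lay at the 95.8th percentile of mean CPM among all genes tested and Sodh2 at the 11.6th.

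Akr1B was the largest part of the summed level of the group in every library. The 7 genes summed to 492 and 465 CPM per kilobase in the galactose libraries, against 432 and 424 in the glucose libraries. The share of Akr1B in that sum was 45.4% and 42.4% in the galactose libraries, against 42.8% and 33.2% in the glucose libraries, and these shares overlapped. CG9436 held 17.0% and 22.9% of the sum on galactose, against 21.3% and 29.5% on glucose. The proportion of sorbitol dehydrogenase to aldo-keto reductase transcripts of the group overlapped between diets. Sodh1 and Sodh2 together had 0.143 and 0.130 times the summed level of the 5 aldo-keto reductases in galactose replicates 1 and 2, against 0.116 and 0.139 times in glucose replicates 1 and 2. With 2 libraries against 2, an exact permutation test of such a ratio cannot give a two-sided p below 0.333, so none was run.

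Of the 7 genes, 5 were higher in both galactose libraries, against 18.8% of all genes tested, and 0 were lower in both, against 23.4% of all genes. In CG12766, Sodh1 and Sodh2, however, the exact 95% Poisson intervals of galactose replicate 2 and glucose replicate 2 overlapped. For Sodh1 these intervals were 68.9 to 76.0 CPM and 66.5 to 73.6 CPM. A fitted log2 fold change above 0 was found for 6 of the 7 and for 46.9% of all genes. The median log2 fold change of the 7 was 0.32, beside -0.04 over all genes tested. These shares and medians are descriptions only, since the genes were chosen with earlier results of these data known. The 7 genes have from 1075 (CG12766) to 2446 (CG10638) exonic bases, and the 4922 tested genes in that range of length had a median of -0.09. The 95% intervals of 5 of the 7, all but CG12766 and Sodh2, lay inside a 2-fold change in either direction. In the authors' deposited table, which gives glucose over galactose, the values turned to galactose over glucose were 0.35 for Akr1B, 0.30 for CG10638, 0.62 for CG12766, 0.24 for Sodh1 and 0.26 for Sodh2. They were 0.05 for CG10863 and -0.11 for CG9436 in the authors' deposited table, and its adjusted p lay between 0.598 (CG12766) and 0.971 (CG10863) over the 7. The authors' deposited table thus called 0 of the 7, against 0.745% of its genes with an adjusted p. For each of the 7, its log2 value lay nearer to 0 than the log2 ratio of its own mean counts. Those means were 225.7 on galactose and 118 on glucose for CG12766, and 43.1 and 30.5 for Sodh2. The deposited log2 values are therefore not on the same scale as those of edgeR.

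**Figure D3:**
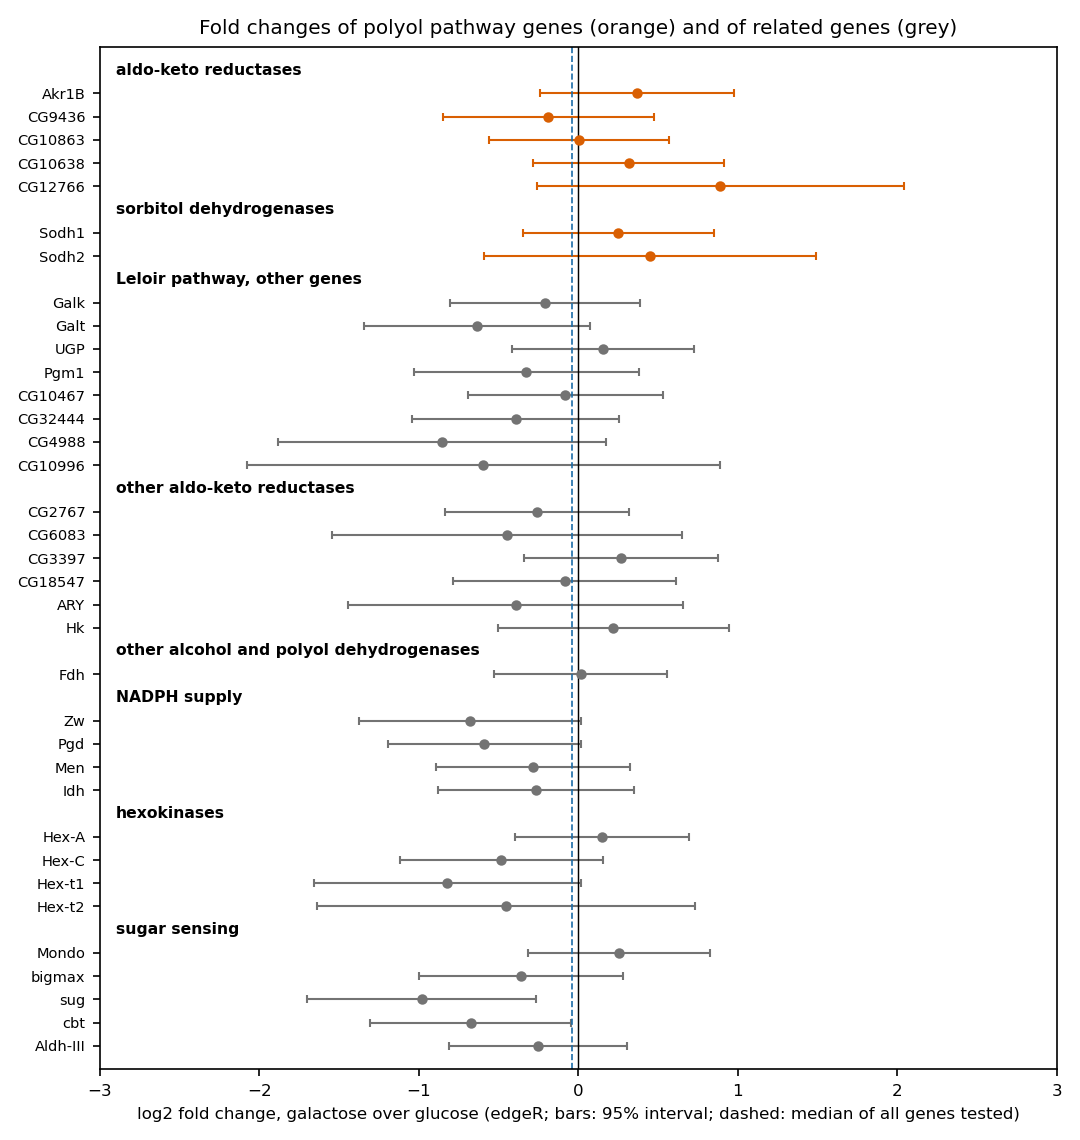
Log2 fold change, galactose over glucose (x axis), with its 95% interval from edgeR, for the 7 polyol pathway genes (orange) and the tested genes of 6 related lists (grey); the dashed line is the median of all genes tested, -0.04. Intervals of the 7 orange genes all include 0, and of the grey genes those of sug and cbt do not.

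Other genes of the same families showed no common direction. Of 6 other aldo-keto reductase genes, 0 were called in either direction, with a median log2 fold change of -0.17. Values lay above 0 for 2 of them, CG3397 and Hk (0.22), and below 0 for 4, with 46.9% of all genes tested above 0. ARY, which lies on the Y chromosome, was at 2.12 and 2.56 CPM on galactose, against 3.86 and 2.27 CPM on glucose. CG3397 was the highest, at 31.6 and 29.9 CPM on galactose, against 26.4 and 24.8 CPM on glucose, a log2 fold change of 0.27 (edgeR adjusted p = 0.758). CG6083 was the lowest and lies 146 bases from Akr1B on the same strand. It was at 6.48 and 7.46 CPM on galactose, against 13.2 and 5.70 CPM on glucose, a log2 fold change of -0.45 (edgeR adjusted p = 0.775), and the groups overlapped because the glucose libraries lay on either side of both galactose libraries. CG2767 had 54.4 and 51.4 CPM on galactose, against 61.7 and 64.9 CPM on glucose. Fdh, the glutathione-dependent formaldehyde dehydrogenase of the alcohol dehydrogenase superfamily to which the sorbitol dehydrogenases also belong, was at 256 and 261 CPM on galactose, against 258 and 254 CPM on glucose, with a log2 fold change of 0.01 (edgeR adjusted p = 0.987).

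The genes of the Leloir pathway and of NADPH supply, which provides the reductant of aldose reductase, lay mostly on the other side of 0. Of 8 Leloir pathway genes 0 were called and 7 had negative values, with 46.9% of all genes tested above 0. In this list 4 were lower in both galactose libraries (23.4% of all genes tested) and 0 higher in both (18.8% of all genes). The median log2 fold change of the 8 was -0.36. Their median deviation from the 4-library mean of log2 CPM was 0.02 and -0.32 in galactose replicates 1 and 2. In glucose replicates 1 and 2 it was 0.06 and 0.11. Galt, the uridylyltransferase, was at 80.3 and 54.8 CPM on galactose, against 91.8 and 118 CPM on glucose. Galk, the galactokinase that competes with aldose reductase for free galactose, was at 119.8 and 95.3 CPM on galactose, against 122 and 126 CPM on glucose. Exons of Galk overlap a gene of the opposite strand over 25.1% of their bases. UGP was the 1 Leloir gene above 0, at 0.16. CG4988 was the lowest, at -0.85, with 10.87 and 6.88 CPM on galactose, against 21.2 and 10.93 CPM on glucose. Its galactose replicate 1 and glucose replicate 2 were thus nearly level. CG10996, at -0.60, had 4.44 and 3.42 CPM on galactose, against 9.39 and 2.45 CPM on glucose, so the groups overlapped.

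All 4 NADPH genes had negative values, with a median of -0.44, and 0 were called. Of all genes tested, 46.9% had values above 0. Zw, the glucose-6-phosphate dehydrogenase that opens the pentose phosphate pathway, was at 48.6 and 47.7 CPM on galactose, against 61.1 and 93.1 CPM on glucose, a log2 fold change of -0.68 (edgeR adjusted p = 0.607). Pgd, the next NADPH-forming enzyme of that pathway, was at 267.3 and 267.1 CPM on galactose, against 343 and 461 CPM on glucose, a log2 fold change of -0.59 (edgeR adjusted p = 0.607). For both genes the galactose libraries were almost level and glucose replicate 2 was the highest. Men and Idh, the malic enzyme and isocitrate dehydrogenase genes, had log2 values of -0.29 and -0.27.

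Hexokinases phosphorylate glucose and also fructose, the product of sorbitol dehydrogenase. Of 4 hexokinase genes 0 were called and 3 had negative values, with 46.9% of all genes tested above 0. Hex-A was at 308 and 286 CPM on galactose, against 272 and 264 CPM on glucose, a log2 fold change of 0.15. Hex-C was at 109 and 80.9 CPM on galactose, against 124 and 142 CPM on glucose, a log2 fold change of -0.48. The testis hexokinase Hex-t1 was at 3.94 and 3.999 CPM on galactose, against 6.62 and 7.41 CPM on glucose, the lowest of the list at -0.82. Hex-t2, at -0.45, had 31.3 and 30.2 CPM on galactose, against 63.6 and 20.3 CPM on glucose, so the groups overlapped.

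Sugar-sensing genes had 0 of 5 called, with 4 negative values and a median of -0.36. Among all genes tested, the share above 0 was 46.9%. The sugar-induced transcription factor gene sug (sugarbabe) was at 51.7 and 33.1 CPM on galactose, against 79.6 and 88.0 CPM on glucose, a log2 fold change of -0.98 (edgeR unadjusted p = 0.0144, adjusted p = 0.582). The transcription factor gene cbt (cabut) was at 78.2 and 61.6 CPM on galactose, against 101 and 122 CPM on glucose, a log2 fold change of -0.67 (edgeR unadjusted p = 0.0394, adjusted p = 0.603). Mondo, which encodes the sugar sensor upstream of both, was the 1 gene of the list above 0, at 124 and 126 CPM on galactose, against 98.0 and 112 CPM on glucose.

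The libraries also differed in tissue and sex markers, whose part in the values of the polyol pathway genes was not tested. Taking the median deviation of log2 CPM from the 4-library mean, the 7 genes were at 0.23 and 0.08 in galactose replicates 1 and 2, against -0.13 and -0.06 in glucose replicates 1 and 2. The 5 tested muscle markers were all lower in both galactose libraries, as were 23.4% of all genes tested, summing to 3201 and 2437 CPM on galactose, against 3749 and 5914 CPM on glucose, and 4 of 5 eye markers were too, with sums of 2504 and 1798 CPM against 3683 and 3488 CPM. The 6 tested female germline markers all had log2 fold changes above 0, as did 46.9% of all genes tested. Of the 6, 4 were higher in both galactose libraries, as were 18.8% of all genes. The germline markers summed to 1107 and 1896 CPM on galactose, against 648 and 1370 CPM on glucose, and these sums overlapped between diets. The 5 testis markers summed to 1244 and 1080 CPM on galactose, against 2480 and 733 CPM on glucose, a spread within the glucose diet that took in both galactose values, and the accessory gland sums of 475 and 666 CPM on galactose also lay between the glucose sums of 895 and 402. The sums of 3 further lists overlapped between diets. They were 768 and 611 CPM on galactose, against 846 and 609 CPM on glucose, for fat body markers. Midgut sums were 19985 and 18125 CPM, against 16684 and 19993 CPM, and Malpighian tubule sums 469.8 and 323 CPM, against 442 and 513 CPM. Of single markers, 2 of 6 tested for fat body and 2 of 5 for Malpighian tubule were lower in both galactose libraries (23.4% of all genes). For midgut, 2 of 8 were higher in both (18.8% of all genes). No marker list held a gene at 0 reads in all libraries.

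**Figure D4:**
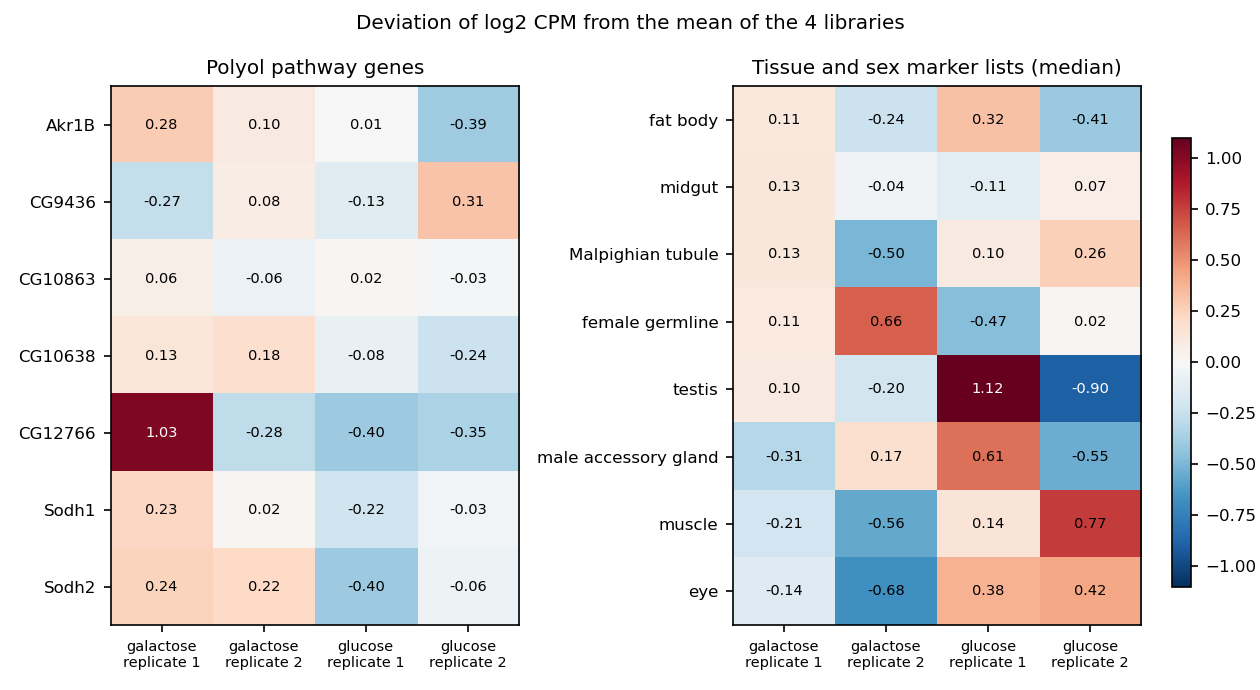
Deviation of log2 CPM from the mean of the 4 libraries (colour and printed value, log2 units) for each polyol pathway gene (left) and the median of each tissue or sex marker list (right), galactose libraries in the left columns. CG12766 stands out in galactose replicate 1 at 1.03, and the testis list runs from 1.12 in glucose replicate 1 to -0.90 in glucose replicate 2.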

How the data were processed

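The authors deposited raw read counts per gene, whole numbers for each of 4 libraries, with totals of 23647685 and 21147212 in galactose replicates 1 and 2 and 25497099 and 23334524 in glucose replicates 1 and 2. Reads had been processed on build BDGP6 with HTSeq 0.6.1, TopHat2 2.0.12, Bowtie2 2.2.3 and DESeq2, according to the submitters' processing notes. The authors also deposited their own comparison. Per the file headers it holds a signal for each diet, equal to the mean of size-factor-normalized counts, with a log2 fold change of glucose over galactose and its p-value, raw and adjusted. Coordinates and exonic lengths are from the BDGP6.54 annotation.

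Counts were tested with edgeR 4.0.16 in R 4.3.3 (quasi-likelihood F test, TMM, filterByExpr with minimum count 10 and minimum total count 15, diet as the only term, Benjamini-Hochberg adjustment over 12529 genes, threshold 0.05). All 7 genes passed the filter. Intervals of fold changes are at 95% from the same fit. The test was checked on simulated counts with a single dispersion for all genes. That check does not show how the test performs on these libraries. Alternatives were DESeq2 1.42.0, limma-voom (limma 3.58.1), other scalings and filters, the replicate number as a block, and each library left out. Replicates differed by more than counting noise. The genes and lists were chosen with earlier results of these data known. Named genes were the 7, members of the lists, and the closest patterns to any of the 7 that ranged over more than 1 log2 unit. Of the lists, vas, wupA and CG4836 were not matched in the count table under their present identifiers and nos had an ambiguous symbol, so they were not used here. A further gene of the Leloir pathway is not reported here.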

Additional observations from a re-analysis of the deposited data

How the results depend on the processing

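Under all 12 alternatives 0 of the polyol pathway genes were called, 7 tested in each but 6 with the stricter filter on low counts, which left out Sodh2. The number of genes called among all tested, 0 with edgeR and all libraries, was 88 with DESeq2 and ran from 0 to 549 when each library was left out: 549 without glucose replicate 1, 147 without glucose replicate 2, and 0 in the fits that left out a galactose library. The median log2 fold change of the 7 was 0.32, and 0.20 with upper-quartile scaling, which itself moved the median of all genes by -0.11. It ran from 0.072 (without galactose replicate 1) to 0.36 when each library was left out. Set against the median of all genes, it stayed between 0.23 and 0.40 over the 12 alternatives. CG10863 changed sign with upper-quartile scaling (-0.10) and with the stricter filter on low counts (-0.0071), and ran from -0.13 to 0.073 when each library was left out, as CG9436 did from -0.39 to 0.057. Akr1B, CG10638, CG12766, Sodh1 and Sodh2 stayed above 0 in every fit that tested them. With the replicate number as a block the median of the 7 was 0.32, 0 genes were called and the smallest adjusted p among the 7 was 0.454; the block changed no call. Genes with an unadjusted edgeR p under 0.05 numbered 1842 with the block and 1033 without it. The deviations of same-numbered libraries correlated at 0.23 over 12529 genes and at 0.30 over the 9421 genes of at least 5 CPM. With 2 pairs the numbers were not taken as pairing. Counting error was widest for Sodh2, at 30 to 44 reads a library.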

Other observations

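Adh, the alcohol dehydrogenase gene, had 6 and 2 reads in the galactose libraries and 4 reads in each glucose library, and Adhr had 0 reads in all 4 libraries. Their annotated exons coincide on the same strand over 93.9% of the bases of Adh and 100% of those of Adhr. Neither gene entered the test, and these counts were not used as levels.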
